A study of Homo sapiens with 12 samples.

Results

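The comparison is between 3 libraries of cells given pladienolide B (PladB) and 3 libraries of cells given DMSO, out of 12 SLAM-seq libraries in the series. The cells were 22Rv1, an established human prostate cancer line, gene-edited so that SF3B1 carries the substitution C1111S, and the DMSO controls carried the same edit. PladB was given at 10 nM for 3 h and the controls had 0.1% DMSO. The labels list 100 µM 4-thiouridine for 1 h as the following step for both groups, and do not say whether the compound was still present during it. The labels do not say how many clones the edited line holds, or whether the replicates were separate cultures, and p-values cover only how much these samples vary. The members described are 18650 coding genes. Where 3′ UTR intervals of a gene overlapped, the interval with the most reads stood for them, so that a read was counted once within a gene. In 228 genes an interval overlapped that of another gene on the same strand, where a read can count for both.

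SF3B1 is the largest subunit of SF3b, the part of the U2 snRNP that holds the branch site of an intron during early spliceosome assembly. Pladienolide B is a natural product that binds SF3b in the pocket for the branch-site adenosine and inhibits splicing of introns that depend on it. In SLAM-seq, cells take up 4-thiouridine into RNA made during the labelling, and after alkylation such a T of the genome is read as C. A read with such a change (a T>C read) stands for newly made RNA, and all reads of a gene, old and new, stand for its total RNA. Transcripts that turn over fast have a large share of T>C reads, and stable ones a small share.

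Each library gave between 15245907 and 20772902 coding reads, of which 826620 to 1648758 had T>C. The 11 luminal prostate markers all had reads, and their summed level was 3399 to 3697 CPM (reads scaled to the size of the library) in DMSO and 3948 to 4160 in PladB. Of 5 basal markers, KRT5, KRT14, TP63 and KRT6A had no read, and the list summed to 0 to 1.09 CPM in DMSO and 1.03 to 2.11 in PladB. The 7 neuroendocrine markers summed to 31.2 to 40.3 CPM in DMSO and 44.0 to 48.9 in PladB, with INSM1, NCAM1 and NEUROD1 at 0. The 9 stromal and endothelial markers summed to 17.0 to 21.3 CPM in DMSO and 27.2 to 44.3 in PladB, with COL1A2, PECAM1, VWF and CDH5 at 0. The 5 immune markers summed to 1.48 to 5.86 CPM and 2.84 to 5.28, with CD3E and LYZ at 0. On this scale, which uses a TMM factor for each library, the luminal, neuroendocrine and stromal sums were higher in every PladB library than in every DMSO library. With library totals in place of that factor the luminal sums overlapped (3508 to 3765 in DMSO and 3456 to 3613 in PladB), as did the neuroendocrine sums (33.0 to 41.1 and 38.2 to 42.8), while the stromal sums stayed apart (17.9 to 21.7 and 23.6 to 38.8). The part of these markers in the results below was not tested.

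PladB cells carried less label in their RNA by every measure. The share of coding reads with T>C was 9.83%, 8.98% and 9.53% in the DMSO libraries and 5.66%, 5.31% and 5.35% in the PladB libraries. Each T>C read also held fewer conversions, 1.79, 1.85 and 1.80 in DMSO and 1.36, 1.37 and 1.42 in PladB. No PladB library reached the lowest DMSO library on either measure. Conversions per T>C read averaged 1.81 ± 0.035 (SD, n = 3) with DMSO and 1.38 ± 0.0309 with PladB, which is 0.763 times as many. An exact two-sided permutation test gave p = 0.1, and 3 libraries against 3 can give no smaller value. Fewer newly made RNAs and fewer labelled positions in each new RNA both lower T>C reads, and they cannot be told apart within a gene here. Nor can fewer cells making a transcript be told apart from less RNA per cell in bulk samples.

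**Figure D1:**
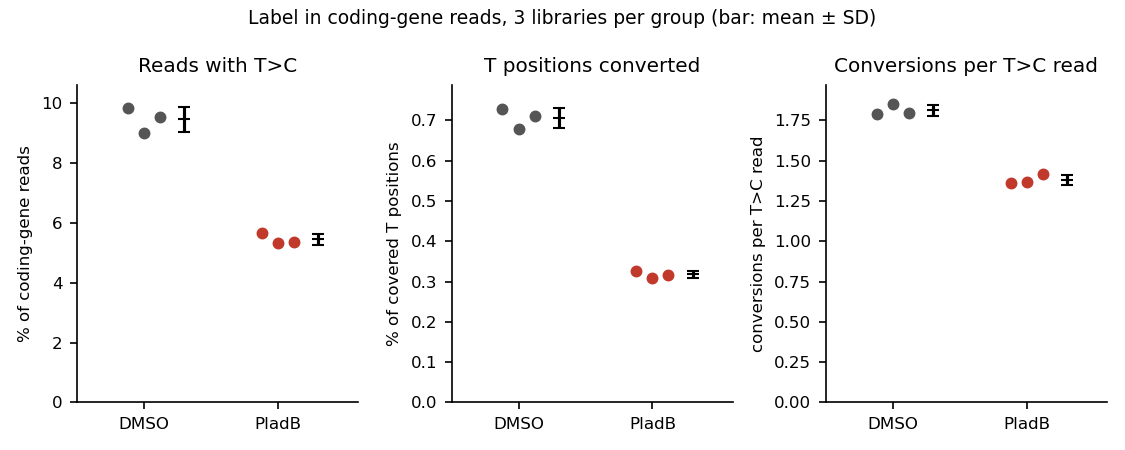
Label in coding reads of each library: the percent of reads with T>C (left), the percent of covered T positions converted (middle) and conversions per T>C read (right), with points for libraries and bars for the mean and SD of 3. The PladB points lie below the DMSO points in all 3 panels.

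T>C reads were first scaled to all reads (T>C CPM below), so that a library-wide loss of label is kept in the values. T>C reads were lower in PladB for most genes, and a change in new RNA below means a change in T>C reads. The median log2 change in T>C reads over the 10722 genes tested was -1.16, and 81.6% of genes were below 0. Of these genes, 1764 fell (16.5% of those tested) and 85 rose (0.793%) at an adjusted p under 0.05 in edgeR. Without DMSO replicate 2 the genes that rose numbered 51, and with a fit to only the 6 libraries 934 fell. In total RNA, 2162 of 13178 genes fell (16.4%) and 1789 rose (13.6%), with a median log2 change of -0.07. The median standard error was 1.04 for T>C reads against 0.28 for all reads, so that moderate changes of new RNA in low genes were often not detectable at this depth. The 3 PladB libraries lay below the 3 DMSO libraries in T>C CPM in 3543 genes (33%) and above them in 274 (2.56%). In total RNA these were 2894 (22%) and 2488 (18.9%).

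Measured relative to other newly made RNA (T>C reads scaled to T>C reads), 633 genes fell (5.9%) and 508 rose (4.74%). On this scale the median change was -0.36 and 60.4% of genes were below 0. Whether this is a remainder of a loss common to most genes was not tested. With a fit to only the 6 libraries 234 fell and 381 rose, with library totals 879 and 313, and DESeq2 called 1279 lower and 682 higher. T>C reads were then compared with the reads of the same gene that carried no T>C, in one model. The labelled reads fell more than the unlabelled ones in 1177 of 10722 genes (11%) and rose more in 3 (0.028%), which were ECI1, S100A6 and SLC17A7, named because they were so few. ECI1 lost this call without DMSO replicates 1 or 2 (adjusted p = 0.15 and 0.11) or any PladB replicate (0.064, 0.081 and 0.061). S100A6 lost it without DMSO replicates 2 or 3 (0.059 and 0.068), and SLC17A7 without any DMSO replicate (0.086, 0.077 and 0.081) or PladB replicates 1 or 3 (0.068 and 0.077). The number of genes with a larger fall was 438 in a fit to only the 6 libraries and 634, 755 and 646 without DMSO replicates 1, 2 and 3, and the number with a larger rise lay between 0 and 5 when 1 library was left out.

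The counts depend on how libraries were put on one scale. The TMM factor, which centres the typical gene, was 0.868 to 0.875 in PladB and 1.02 to 1.06 in DMSO. With library totals and no such factor, the median of all genes moved by -0.25 on the log2 scale. Then 3293 genes were lower and 727 higher in total RNA, and 2468 lower and 38 higher in T>C reads scaled to all reads. No spike-in read was counted in these 6 libraries, so neither scale can be tied to RNA per cell.

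Genes were put in classes by both measures, and the values that chose them are given as a description. In 338 genes (3.15% of those tested) new RNA fell while total RNA was kept, meaning that it was not called and that the 95% interval of its change lay within 1.5-fold. A limit of 2-fold gave 554 genes. In 921 genes (8.59%) both fell, and in 78 (0.727%) both rose, or 50 without DMSO replicate 2. All reads include the T>C reads, so a loss of T>C reads by itself lowers the total. With reads without T>C in place of all reads, 644 of the 921 lost both and 74 of the 78 rose in both. The class with a kept total then held 355 genes, 258 of them among the 338. With library totals, 34 of the 78 were called higher in new RNA and 69 in total RNA. With T>C reads scaled to T>C reads, 71 genes kept their total, 428 lost both and 420 rose in both. A further 110 genes lost new RNA while their total RNA rose, with a median total change of 0.43 on the log2 scale. With T>C reads scaled to T>C reads this class held 10 genes, and it was not counted with library totals. New RNA fell with total RNA neither called nor shown to be kept in 395 more. At the limit, ZNF708 was just inside the kept class, with a total interval of -0.58 to 0.43, and CUL5 just outside it, at -0.59 to -0.03.

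**Figure D2:**
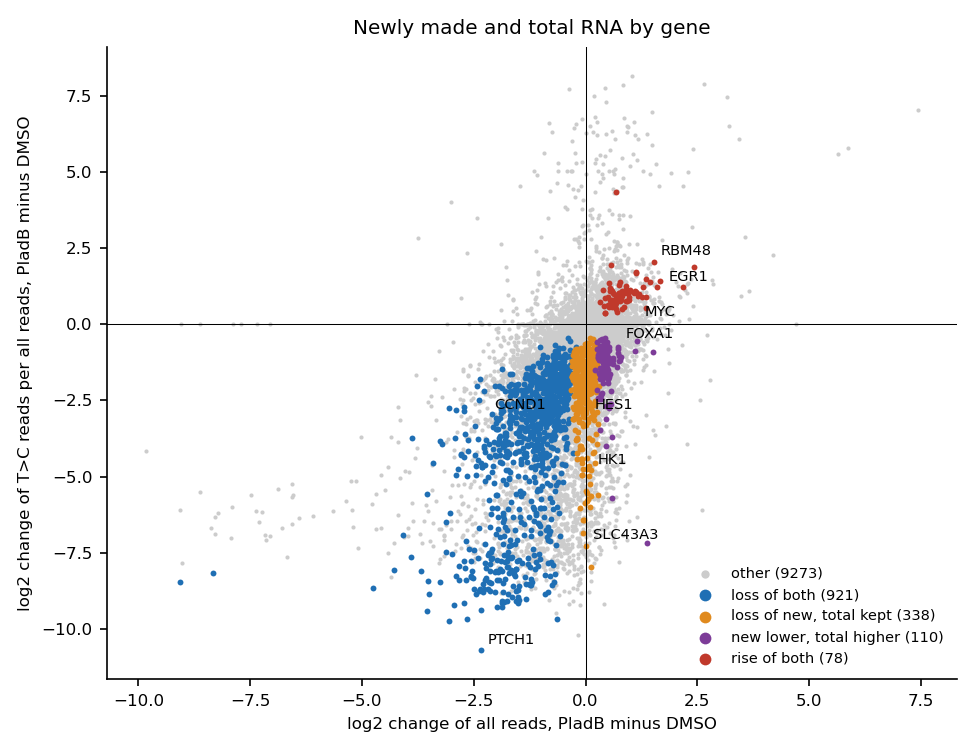
Each point is 1 coding gene, with the log2 change of all reads on the x axis and of T>C reads scaled to all reads on the y axis, PladB minus DMSO, coloured by class. Most points lie below 0 on the y axis, and the genes with a kept total form the narrow column around 0 on the x axis.

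Among genes that kept their total RNA, the steepest falls in new RNA left almost no T>C read in PladB. SLC43A3, which encodes a nucleobase transporter (chromosome 11, 57174427 to 57175264 in hg19, 3′ UTR), had a T>C level of 4.34, 6.57 and 2.39 CPM in DMSO and 0.0554, 0 and 0 in PladB. Its total RNA was 51.2, 62.0 and 53.6 CPM in DMSO and 51.4, 69.6 and 47.9 in PladB. PladB held 1 T>C read in all. The T>C groups of SLC43A3 were apart, which the rule for genes named by size required here and below, while its totals overlapped. The DMSO level was 199 times the PladB level, with a counting interval of 35.3 to 7881, and the log2 changes were -7.27 for new RNA (SE 1.45, adjusted p = 0.000407) and 0.02 for total RNA.

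HK1, the hexokinase of most tissues (chromosome 10, 71160892 to 71161638), had 9.24, 2.32 and 6.14 T>C CPM in DMSO and 0.443, 0 and 0.146 in PladB. All reads of HK1 stood at 148, 130 and 144 CPM against 168, 129 and 166. The T>C groups did not overlap and the totals did, with log2 changes of -4.79 (SE 0.98, adjusted p = 0.000597) and 0.13. CHM, a Rab escort protein, LSR, a lipoprotein receptor of cell junctions, and the membrane protein gene TMEM181 had 2 or 3 T>C reads in all in PladB. Their DMSO levels were 96.1 times the PladB level for CHM (counting interval 26.3 to 799), 57.4 times for LSR (19.4 to 281) and 52.9 times for TMEM181 (17.8 to 259). Their totals changed by -0.05, 0.11 and 0.00 on the log2 scale.

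BCAT2, a mitochondrial enzyme that breaks down branched-chain amino acids, and SPATS2L changed in new RNA by -5.62 and -4.96 (adjusted p = 0.00223 and 0.00136). The autophagy protease gene ATG4D changed by -4.76 (adjusted p = 0.0403). That call was lost on leaving out any single library, with adjusted p of 0.13, 0.07 and 0.052 without DMSO replicates 1, 2 and 3 and 0.053, 0.086 and 0.079 without PladB replicates 1, 2 and 3. The 7 others kept theirs.

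The same class held short-lived regulators with many T>C reads, in which the fall was measured more exactly. HES1, a Notch-responsive repressor (chromosome 3, 193856023 to 193856401), had 99.6, 111 and 106 T>C CPM in DMSO and 21.4, 25.5 and 19.8 in PladB. Its total RNA was 123, 129 and 131 CPM against 127, 122 and 137. The T>C share of HES1 reads thus went from 82.3% to 17.3% while the totals overlapped. New HES1 RNA changed by -2.24 (SE 0.17, adjusted p = 2.8e-12) and total by 0.01.

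ID3, an inhibitor of bHLH transcription factors (chromosome 1, 23884421 to 23885450), had 587, 589 and 641 T>C CPM in DMSO and 211, 210 and 212 in PladB. All reads were 980, 1006 and 1055 CPM and 1147, 1119 and 1157. New RNA lay far below DMSO in each PladB library, while total RNA lay slightly above. The log2 changes were -1.52 (SE 0.08, adjusted p = 6.18e-17) and 0.17 (adjusted p = 0.0935, against 0.0082 in DESeq2). TBX3, a luminal T-box factor, BBC3, the p53-responsive cell death gene PUMA, and MDM2, the ligase that degrades p53, fell in new RNA by 2.05, 1.75 and 2.03 on the log2 scale with totals kept (0.12, 0.16 and -0.12). With library totals, total MDM2 RNA was called lower (-0.38, adjusted p = 0.0199).

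Where both measures fell, the steepest cases had no T>C read in any PladB library. PTCH1, the Hedgehog receptor (chromosome 9, 98205264 to 98209193), had 10.8, 16.4 and 10.8 T>C CPM in DMSO and 0, 0 and 0 in PladB, at least 62.8-fold lower against a floor of 3 counts per library. Its total RNA was 29.3, 40.8 and 25.4 CPM against 5.43, 3.45 and 9.99. Neither measure overlapped, and total RNA changed by -2.34 (SE 0.34, adjusted p = 8.43e-07).

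In all, 137 of the 921 genes had no T>C read in PladB. This was not particular to the class. It also held for 99 of the 395 genes with a fall in new RNA and an unresolved total, and for 534 of 6097 genes called on neither measure. Among the 338 genes with a kept total it held for 2. The other 7 named by size were the ephrin gene EFNA4 (at least 32.2-fold lower), the serum response factor coactivator gene MKL2 (31), RNF24 (30.6), the translation repressor gene EIF4ENIF1 (25.3), the iron-sensing F-box gene FBXL5 (25.3), MAST4 (23.5) and the Arf GTPase activator gene AGAP1 (23.4), all as lower bounds. Their totals changed by -0.63 (RNF24) to -3.54 (EIF4ENIF1) on the log2 scale. The call on total RNF24 was lost without DMSO replicate 1 (adjusted p = 0.12), DMSO replicate 3 (0.078), PladB replicate 1 (0.053) and PladB replicate 3 (0.14).

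New RNA fell further than total RNA in CCND1, the G1 cyclin D1 (chromosome 11, 69466051 to 69469242). It had 918, 1038 and 856 T>C CPM in DMSO and 172, 163 and 158 in PladB. All reads were 5904, 6233 and 5721 CPM against 4391, 4315 and 4320. The groups were apart on both measures, and new RNA changed by -2.51 (SE 0.09, adjusted p = 6.58e-23) against -0.46 for total RNA (adjusted p = 2.79e-08). Labelled reads fell more than unlabelled ones in CCND1 (adjusted p = 2.35e-08).

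SLC38A2, an amino acid transporter gene (chromosome 12, 46751971 to 46754893), had the larger change in total RNA. Its T>C CPM were 131, 134 and 148 in DMSO and 56.0, 39.0 and 55.5 in PladB, and its totals 479, 497 and 452 CPM and 140, 107 and 145. The groups were apart on both, and total RNA fell by 1.86 and new RNA by 1.46 on the log2 scale. The labelled and unlabelled reads of SLC38A2 were not called different (0.60, adjusted p = 0.0775). CPSF4, a subunit of the cleavage and polyadenylation complex, changed by -2.21 in new and -1.80 in total RNA, and CDK13, a kinase of transcription elongation, by -3.80 and -2.22.

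GATA2, a luminal transcription factor gene of the 110 in which new RNA fell and total RNA rose (chromosome 3, 128198265 to 128199861), had 119, 138 and 104 T>C CPM in DMSO and 73.0, 63.1 and 60.8 in PladB. Its total RNA was 308, 303 and 262 CPM against 638, 659 and 578. PladB was below DMSO in every library for new RNA and above it in every library for total RNA. The log2 changes were -0.87 (SE 0.16, adjusted p = 0.000154) and 1.10 (SE 0.10, adjusted p = 4.07e-11). The stress cytokine gene GDF15 and the TGF-beta regulator gene PMEPA1 were in the same class, with new RNA lower by 0.69 and 0.85 and total RNA higher by 0.49 and 0.52.

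To describe short-lived transcripts, genes were chosen by a T>C share of at least 40% in the 6 libraries of the other compounds. They also had at least 1.5 conversions per T>C read and a mean of at least 50 T>C reads in DMSO. No PladB library was used in the choice. The DMSO limits draw on a side of the comparison, however, and that can favour lower values in PladB, here and in the 4499 genes below. In the 336 such genes the median T>C share was 54.3% in DMSO and 24.7% in PladB, and it was lower in PladB in 330. Their new RNA fell in 108 and rose in 4, while total RNA fell in 44 and rose in 83, with a median total change of 0.22. With library totals, new RNA fell in 146 and rose in 3, and total RNA fell in 66 and rose in 67, with a median of -0.03. Over all 4499 genes with this much label, these 336 among them, the median share went from 12.7% to 5.87%. Of the 4499, new RNA fell in 1315 and rose in 21, a share near that of the 336, and total RNA fell in 1217 and rose in 864. RGS2, an inhibitor of G protein signalling, went from a T>C share of 63.6% to 20.9% as its total rose by 1.49 on the log2 scale. TXNIP, an inhibitor of thioredoxin, went from 78.6% to 47.9% with a total rise of 0.66. Neither RGS2 nor TXNIP was called in T>C reads scaled to all reads (-0.12 and -0.05), although with library totals both were lower (-0.37, adjusted p = 0.00043, and -0.30, adjusted p = 0.0032), and both were chosen for naming after their values were seen.

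**Figure D3:**
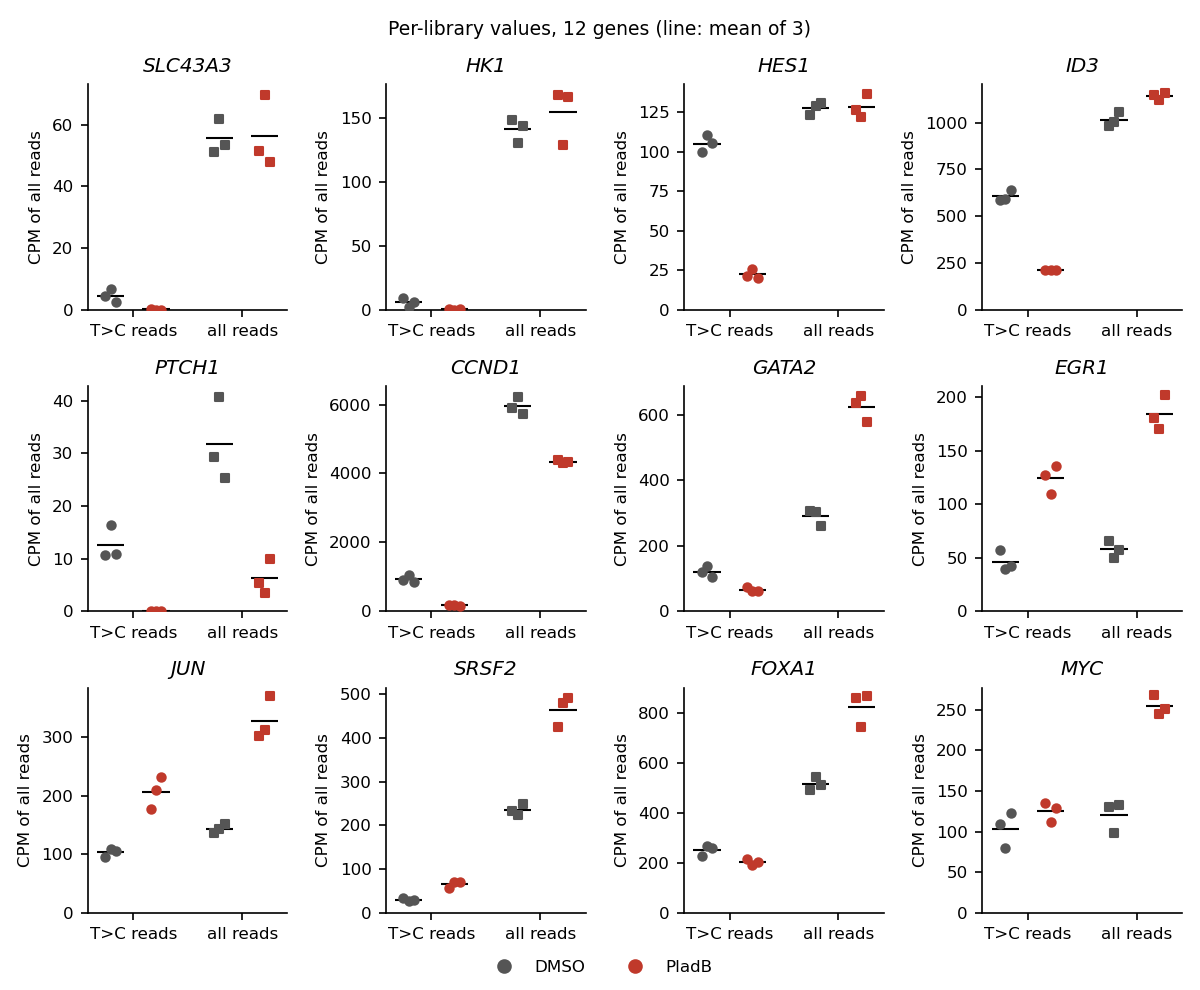
Values in each library for 12 genes, with T>C reads (circles) and all reads (squares) both in CPM of all coding reads and a line at the mean of 3. In SLC43A3, HK1, HES1 and ID3 the T>C reads drop in PladB while all reads stay near or slightly above DMSO; in PTCH1 and CCND1 both drop, in GATA2 T>C reads drop while all reads are higher, and in EGR1, JUN and SRSF2 both are higher.

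The 78 genes in which both measures rose were not alike in how their T>C reads were labelled. In DMSO, 21 of them had at least 1.5 conversions per T>C read, 17 had 1.2 to 1.5 and 40 had under 1.2, where the median over all genes tested was 1.75. A T>C read should hold at least 1 conversion, yet in 340 of 10722 genes, 9 of the 78 among them, the deposited conversions in DMSO were fewer than the T>C reads, and values near 1 are read with that limit. In the 21 well labelled genes the median T>C share was 22.9% in DMSO and 19.3% in PladB, and it was lower in PladB in 15. In the 40 others it was 11.3% and 13.2%, with a median of 1.04 conversions per T>C read in DMSO and 1.01 in PladB. Over all genes tested that share went from 10.1% to 4.51%. T>C changes that do not come from the label were not subtracted, since every library analysed here had received 4-thiouridine.

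SRP14, a subunit of the signal recognition particle, had a T>C share of 70.3% in DMSO and 74.1% in PladB, with 1.05 and 1.04 conversions per T>C read. Its total RNA rose by 0.61 on the log2 scale and its T>C reads by 0.69. SRP14 was singled out after its values were seen.

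Of the 21 well labelled genes, 6 had a single exon, as did 182 of all 7057 tested genes with at least 1.5 conversions per T>C read in DMSO. EGR1, an immediate early zinc finger factor (chromosome 5, 137803771 to 137805004), had 56.7, 39.7 and 42.3 T>C CPM in DMSO and 127, 109 and 136 in PladB. All reads were 65.6, 49.8 and 57.4 CPM against 180, 170 and 202. Every PladB library was above every DMSO library on both measures, with changes of 1.42 (SE 0.18, adjusted p = 2.69e-07) and 1.68 (SE 0.15, adjusted p = 1.6e-11). JUN, a subunit of AP-1 encoded by a single exon (chromosome 1, 59246463 to 59247746), had 95.5, 109 and 105 T>C CPM in DMSO and 178, 209 and 232 in PladB. Its totals were 137, 142 and 151 CPM against 302, 311 and 370, again with no overlap, and the changes were 1.00 (SE 0.13, adjusted p = 3.79e-07) and 1.20 (SE 0.11, adjusted p = 1.04e-10).

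The 30-base windows below come from the EGR1 and JUN promoters and are shown because these immediate early genes rose in both measures. Promoters are from RefSeq (GRCh38.p14), and the stretch searched was 250 bases before to 50 after the start. The windows are written 5′ to 3′ on the gene's strand, with the match in capitals and its place given from the start.
EGR1, chr5:138465364-138465393, plus strand, match at bases -105 to -96: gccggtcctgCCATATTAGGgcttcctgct
EGR1, chr5:138465386-138465415, plus strand, match at bases -83 to -74: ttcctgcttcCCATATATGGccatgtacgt
JUN, chr1:58784096-58784125, minus strand, match at bases -67 to -60: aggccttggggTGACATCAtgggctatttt
The promoters were searched on both strands for 4 motifs: the CArG box of serum response factor, TGACGTCA (the CRE of CREB factors), its variant TGACATCA, and TGACTCA (the AP-1 site). The EGR1 matches are to the CArG box and the JUN match is to TGACATCA. Of the 21 genes, 14 had a promoter in the table, of which 1 held a CArG box, 1 held TGACATCA and 0 held TGACGTCA or TGACTCA. Of 35116 promoters of this length, 454 held a CArG box (1.29%), 918 TGACATCA (2.61%), 649 TGACGTCA (1.85%) and 1738 TGACTCA (4.95%). Among the 10322 promoters of genes tested here in new or total RNA these shares were 1.04%, 1.47%, 3.20% and 2.84%. A match is a description of the letters and not a measured binding site.

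SRSF2, an SR splicing factor (chromosome 17, 74730197 to 74732242), had 34.0, 26.7 and 29.9 T>C CPM in DMSO and 56.5, 70.4 and 70.2 in PladB. Its totals were 232, 223 and 249 CPM against 424, 479 and 491. The groups did not overlap, and new and total RNA rose by 1.12 (SE 0.21, adjusted p = 0.000245) and 0.99. RBM48, a protein of the minor spliceosome (chromosome 7, 92166252 to 92169795), had 3.89, 3.61 and 3.28 T>C CPM against 12.3, 17.2 and 15.4, a change of 2.05 (SE 0.47, adjusted p = 0.00193). The bZIP gene CREBZF and the RNA-binding protein gene HNRNPDL rose in new RNA by 1.24 and 1.22 and in total RNA by 2.18 and 1.60.

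SNRPN, which encodes an Sm protein of spliceosomal snRNPs and whose interval overlaps that of SNURF, changed by 1.93 in T>C reads (adjusted p = 0.00935), with 1.00 conversions per T>C read in DMSO. That number was also near 1 in FAH (0.997), BCL7C (1.00) and GTF2H4 (1.08) below. The SNRPN DMSO libraries had 5.02, 0.451 and 6.02 T>C CPM and the PladB libraries 15.0, 15.8 and 13.1. The other genes named by size lost their calls when single libraries were left out. ZNF263 (1.89) lost its call on new RNA without DMSO replicate 1, DMSO replicate 2 or PladB replicate 3 (adjusted p = 0.14, 0.16 and 0.13). CYB5D1 (1.70) lost it without DMSO replicates 1, 2 or 3 (0.069, 0.054 and 0.12) or PladB replicates 1 or 3 (0.069 and 0.097). GTF2H4, a TFIIH subunit gene (1.67), lost it without DMSO replicates 1 or 2 (0.0998 and 0.17) or PladB replicates 2 or 3 (0.11 and 0.072). BCL7C, a BAF complex gene (1.39), lost it without DMSO replicates 1, 2 or 3 (0.056, 0.060 and 0.15) or PladB replicates 2 or 3 (0.15 and 0.055). FAH, an enzyme gene of tyrosine breakdown (1.34), lost it without DMSO replicates 2 or 3 (0.17 and 0.11) or PladB replicates 1 or 2 (0.062 and 0.19). The call on total FAH was lost without DMSO replicates 1, 2 or 3 (0.15, 0.051 and 0.086) or PladB replicate 2 (0.46).

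Changes in new RNA differed with the number of exons, a property that the classes did not use. Exon numbers come from GENCODE release 29, taking the RefSeq-matched transcript with the most exons. In 236 single-exon genes the median change was -0.04 in new RNA and 0.36 in total RNA. New RNA fell in 11 of them and rose in 10, and total RNA fell in 7 and rose in 68. In 1358 genes with over 20 exons the medians were -1.75 and -0.36, with new RNA falling in 292 and rising in 0. Genes with 2 exons (-0.90), 3 to 5 (-0.87), 6 to 10 (-1.09) and 11 to 20 (-1.41) lay between in new RNA. With library totals the medians of the same single-exon genes were -0.29 and 0.11, with 18 lower and 6 higher in new RNA and 21 and 49 in total RNA, and those of the same genes with over 20 exons were -2.01 and -0.61. The span of the gene gave a like order, from -0.42 under 5000 bases to -1.77 over 100000. The parts of exon number and span were not separated here.

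**Figure D4:**
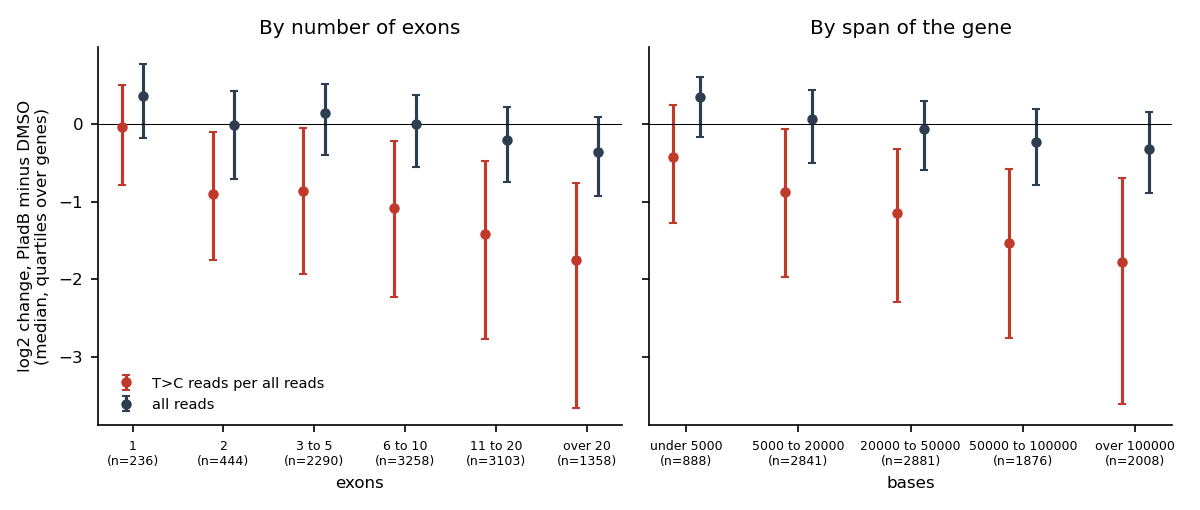
Median log2 change, PladB minus DMSO, with quartiles over genes, by number of exons (left) and by genomic span in bases (right), for T>C reads scaled to all reads and for all reads. The medians of T>C reads go from -0.04 in single-exon genes to -1.75 in genes with over 20 exons, and those of all reads from 0.36 to -0.36.

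The classes differed in the same features. Genes that rose in both measures had a median of 5 exons and a span of 8569 bases, those that lost both 12 exons and 55369 bases, and all tested genes 9 exons and 32953 bases. Genes with a kept total had 9 exons and 35028 bases. The classes also differed in level. The median of all reads in DMSO was 131 CPM for genes with a kept total and 48.9 for genes that lost both. It was 233 CPM for genes that rose in both and 34.6 over all tested genes. A kept total required a narrow interval, which favours genes with many reads. The part of level in the differences between classes was not tested. In the libraries of the other compounds, the median T>C share was 8.35% for genes with a kept total, 13.9% for genes that lost both and 10.2% over all tested genes.

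Gene lists for the tissue and the treatment are described by counts, beside all tested genes (1764 lower and 85 higher of 10722 in new RNA, median -1.16). In the 3 lists of splicing factors more genes rose than fell in total RNA, but for U2 and SR genes this turned with library totals. Of 26 SF3b, SF3a and U2 genes, 2 fell and 1 rose in new RNA (median -0.47), and 3 fell and 8 rose in total RNA. SF3B1 itself had 8.12, 7.73 and 5.19 T>C CPM in DMSO and 5.99, 7.41 and 4.45 in PladB, with a change of -0.24 (adjusted p = 0.81), and its total changed by 0.13 (adjusted p = 0.62). The groups overlapped on both measures, and this 3′ UTR reading does not see the edited codon. U2AF1, which recognises the 3′ splice site, fell in new RNA by 1.24 (adjusted p = 0.00261). Among 25 SR proteins 1 fell and 2 rose in new RNA, and 4 fell and 10 rose in total RNA. Of 30 hnRNP genes, 6 fell and 4 rose in new RNA, and 0 fell and 14 rose in total. With library totals 8 U2 genes were lower and 3 higher in total RNA, 7 and 5 SR genes, and 2 and 6 hnRNP genes. In new RNA these numbers were 2 and 0 (U2), 5 and 1 (SR) and 7 and 1 (hnRNP).

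Ribosomal protein and oxidative phosphorylation genes, short genes with stable mRNAs, rose in total RNA. Of 77 ribosomal protein genes, 73 rose and 0 fell in total RNA (median 0.55), while 10 rose and 0 fell in new RNA (median -0.10). Of 70 oxidative phosphorylation genes, 61 rose and 0 fell in total RNA (median 0.50), with 6 lower and 5 higher in new RNA (median -0.27). With library totals 55 and 32 of these were higher in total RNA, and in new RNA 11 ribosomal protein genes were lower and 7 higher, and 10 oxidative phosphorylation genes lower and 0 higher.

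In several regulatory and stress lists many members lost new RNA and few gained it. Among the 4499 genes with much label described above, falls were also common and rises rare (1315 lower and 21 higher). Whether these lists differ from genes with as much label was not tested. Of 38 integrated stress response genes, 25 fell and 0 rose in new RNA (median -1.49), and 13 fell and 6 rose in total RNA (20 and 4 with library totals). Of 26 mRNA decay regulators, such as TOB1, which recruits the deadenylase CCR4-NOT, 14 fell and 0 rose (median -1.30). TOB1 had 102, 79.1 and 110 T>C CPM in DMSO and 59.4, 44.5 and 49.4 in PladB, a change of -0.93 (adjusted p = 0.000154) with no overlap. Immediate early genes went both ways, with 12 lower and 2 higher of 40 in new RNA and 4 lower and 12 higher of 41 in total RNA. Of 31 genes of the p53 list 9 fell and 0 rose in new RNA, and of 31 NRF2 and electrophile response genes 10 fell and 0 rose. The shares called lower in the immediate early, p53 and NRF2 lists were near that of the 4499 genes.

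Of 46 DNA replication genes, 12 fell in new RNA and 0 rose (median -1.47), among them MCM7, a subunit of the replicative helicase (-1.71), and RRM2, the small ribonucleotide reductase subunit (-1.30). The median of the DNA damage repair genes was -2.02, but only 4 of 39 were called lower and 0 higher. That share called lower (10.3%) was below that of all tested genes (16.5%). BRCA1, a homologous recombination gene, had 7.21, 3.80 and 3.58 T>C CPM in DMSO and 0.222, 0 and 0.0729 in PladB. It changed by -5.44 (adjusted p = 0.000512) in new RNA and -1.01 (adjusted p = 4.11e-07) in total RNA, with no overlap on either. The intronless list, of genes without introns, had 5 lower and 4 higher of 57 in new RNA (median 0.01) and 6 lower and 27 higher of 63 in total RNA. With library totals its new-RNA median was -0.24, with 11 lower and 1 higher, and in total RNA 8 were lower and 20 higher.

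**Figure D5:**
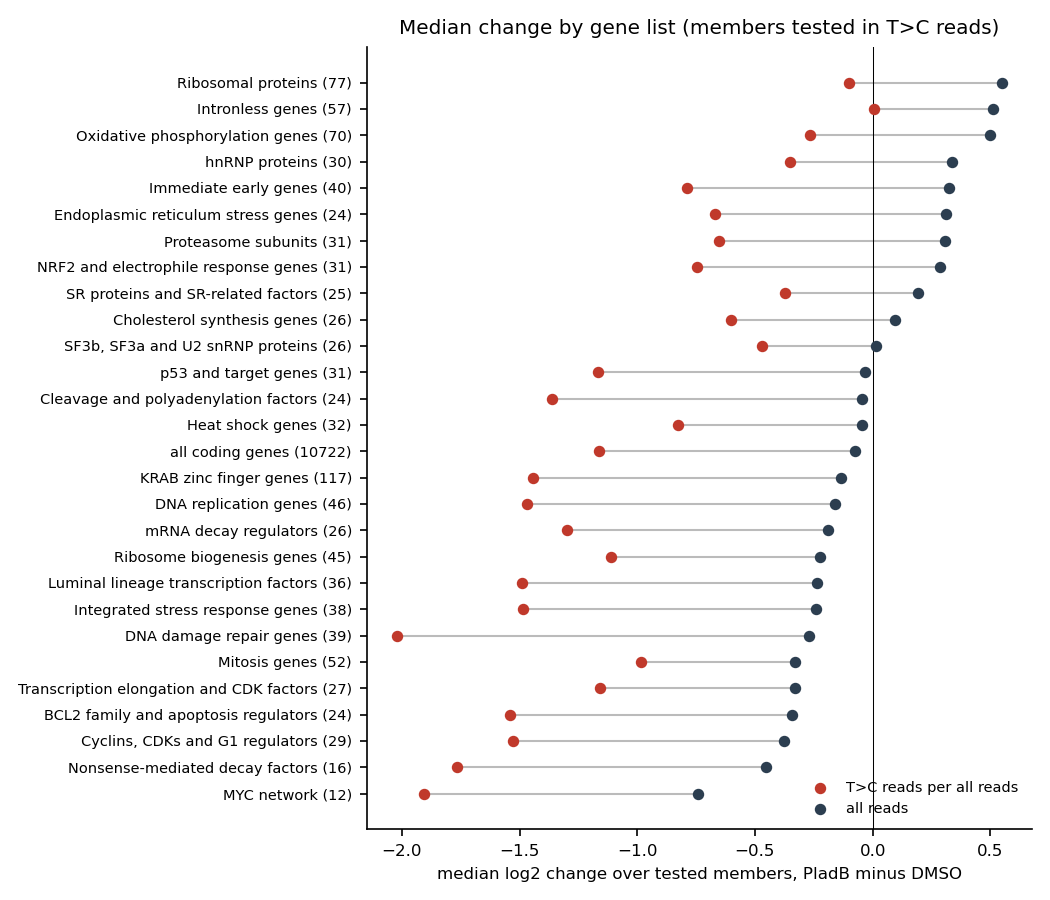
Median log2 change, PladB minus DMSO, over the tested members of each list, for T>C reads scaled to all reads (red) and all reads (dark), with the number of members in brackets. Ribosomal protein, intronless and oxidative phosphorylation genes stand at the top and the MYC network at the bottom, in order of the median of all reads, while DNA damage repair genes have the lowest median of T>C reads (-2.02). In every list shown the median of T>C reads lies below that of all reads.

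Many lineage genes of luminal prostate cells lost new RNA, while their total RNA went both ways. Of 36 luminal transcription factor genes, 18 fell (50%, against 16.5% of all tested genes) and 0 rose in new RNA (median -1.49). Of 39 tested in total RNA 10 fell (25.6%, against 16.4% of all genes) and 5 rose (12.8%, against 13.6%). With library totals 21 were lower and 0 higher in new RNA, and 13 lower and 4 higher in total RNA.

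FOXA1, a pioneer factor of luminal cells that opens chromatin (chromosome 14, 38058757 to 38060569), had 228, 269 and 260 T>C CPM in DMSO and 216, 190 and 203 in PladB. Its total RNA was 494, 545 and 513 CPM in DMSO and 861, 744 and 869 in PladB. New FOXA1 RNA was thus slightly below DMSO and total RNA above it, without overlap on either. The new-RNA change of -0.31 (SE 0.11) was just outside the threshold (adjusted p = 0.0515), and it passed without DMSO replicate 1 (-0.38, adjusted p = 0.043) or PladB replicate 1 (-0.36, adjusted p = 0.049), in DESeq2 (-0.29, adjusted p = 0.022) and with library totals (-0.56, adjusted p = 0.00032). Relative to other new RNA it rose by 0.49 (adjusted p = 0.00291; 0.23, adjusted p = 0.19, with library totals), and total RNA rose by 0.67 (adjusted p = 3.29e-07). The labelled reads of FOXA1 fell relative to its unlabelled reads (-1.54, adjusted p = 0.000287), and its T>C share was 48.7% in DMSO and 24.7% in PladB.

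MYC, a short-lived growth regulator, had 109, 80.1 and 122 T>C CPM in DMSO and 136, 112 and 129 in PladB, and totals of 130, 98 and 133 CPM against 268, 245 and 252. The T>C groups overlapped (0.27, adjusted p = 0.2), while every PladB library was above DMSO in total RNA (1.08, adjusted p = 1.08e-08). MCL1, an inhibitor of cell death, had 81.6, 107 and 110 T>C CPM against 91.5, 92.1 and 100, and totals of 358, 369 and 403 CPM against 475, 387 and 482. Both measures of MCL1 overlapped, and neither change was called (-0.07, adjusted p = 0.79, and 0.25, adjusted p = 0.0511). Total MCL1 was called higher in DESeq2 (adjusted p = 0.013), without DMSO replicate 3 (0.027) and without PladB replicate 2 (0.011).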

How the data were processed

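The files hold output of slamdunk 0.4.3 run on 3′ UTR intervals from RefSeq's curated set, per the file headers. The submitters' processing notes give hg19 as the build. The authors deposited, per interval, read counts, T>C read counts, multimapping counts, covered T positions and conversions. They also deposited CPM per interval and a conversion rate, a fraction of covered T positions, per the file headers. Per the labels' protocols, alkylation used iodoacetamide (2.5 mM) and libraries read the 3′ end (QuantSeq).

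Noncoding and spike-in intervals were left out of the tests. The tests on T>C reads and all reads used edgeR 4.0.16 under R 4.3.3 (quasi-likelihood fit to all 12 libraries, group as the only term, TMM factors, filterByExpr, Benjamini-Hochberg adjustment, calls at adjusted p under 0.05). The other 6 libraries, of WX-02-23 and WX-02-43 at 20 µM, share the estimate of spread. T>C reads were scaled to all reads or to T>C reads, and compared with unlabelled reads by an interaction term. CPM of the text, for T>C reads and all reads, are relative to the TMM-scaled total of coding reads. The fits were tested on simulated counts. Floors and counting intervals cover counting error only, since reads carry no molecular identifiers.

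The members, classes and lists were chosen with earlier results of these data known. Genes named by size are, in each class, the 8 with the largest new-RNA change whose libraries do not overlap, with a mean of at least 50 T>C reads in the higher group and under 20% multimapping reads. Also named are FOXA1, SF3B1, MYC, MCL1 and CCND1. From the lists come members with the most T>C reads in DMSO, ranked separately among those called in new or total RNA and those not called. More called than uncalled members were taken, so the named ones do not stand for their list. A few genes outside these rules were chosen after their values were seen (MDM2, GATA2, GDF15, PMEPA1, CREBZF, HNRNPDL, HES1, RGS2, TXNIP, SRP14). Alternatives were DESeq2 1.42.0, library totals, plain interval sums, only the 6 libraries, the replicate block and each library left out. For the classes, reads without T>C in place of all reads were a further alternative. Some items are not reported here.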

Additional observations from a re-analysis of the deposited data

How the results depend on the processing

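Of 10722 genes, DESeq2 called 2874 lower and 151 higher in T>C reads scaled to all reads and 1279 lower in T>C reads scaled to T>C reads. With library totals and no TMM factor, 38 genes were higher in T>C reads scaled to all reads, 313 were higher when scaled to T>C reads, and 3293 were lower and 727 higher in all reads. With only the 6 libraries, 934 were lower in T>C reads scaled to all reads, 234 when scaled to T>C reads, and 438 lower and 0 higher relative to unlabelled reads. Scaled to T>C reads, the classes held 71 genes with a kept total, 428 that lost both and 420 that rose in both. A limit of 2-fold for a kept total gave 554 genes. Among genes with at least 1.5 conversions per T>C read, an alternative chosen after seeing the data, 21 rose in both.

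Leaving out 1 library gave 51 to 71 genes higher and 1289 to 1719 lower in T>C reads scaled to all reads, 383 to 492 and 429 to 688 when scaled to T>C reads, and 1462 to 1711 and 1797 to 1994 in all reads. It gave 634 to 1208 genes lower and 0 to 5 higher relative to unlabelled reads. The classes held 227 to 313 with a kept total, 628 to 791 that lost both and 50 to 66 that rose in both. The share of reads with T>C stayed lower in PladB (-4.24 to -3.82 percentage points), as did conversions per T>C read (-0.45 to -0.41). Among the genes checked singly, none changed direction while called when a setting changed within the same measure. Between the scalings of T>C reads, 1 gene of the class that lost both was called higher in new RNA when scaled to T>C reads.

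Same-numbered samples deviated from their group means with correlations of -0.01 to 0.02, so the numbers were not taken as pairs. With the replicate block, 1696 genes were lower and 82 higher in T>C reads scaled to all reads, 595 and 495 when scaled to T>C reads, and 2159 and 1773 in all reads.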

Other observations

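In noncoding intervals, which no comparison used, 24.6%, 24.1% and 23.7% of reads had T>C in DMSO and 18.5%, 21.8% and 19.8% in PladB, summed over intervals that can overlap. The PladB libraries lay below the DMSO libraries there too. A single locus, ANKRD30BL, held 51.7% to 56.1% of these T>C reads in DMSO and 59.3% to 67.4% in PladB, and 82.6% to 83.8% and 81.3% to 82.4% of its own reads had T>C. Without ANKRD30BL the noncoding shares were 14.0%, 12.7% and 13.0% in DMSO and 8.70%, 8.64% and 8.49% in PladB. In 20 coding genes at least 50% of reads had T>C in all 12 libraries. They held 1.94% to 2.01% of coding T>C reads in DMSO and 3.41% to 3.68% in PladB, and without them the T>C share of coding reads ran from 8.82% to 9.66% in DMSO and from 5.13% to 5.48% in PladB. Across 10720 genes, which are not independent replicates and share their libraries, the log2 changes of new and total RNA had Pearson's r of 0.51 and Spearman's rho of 0.56. T>C reads are a part of all reads and both used the same scaling, so a part of this correlation is built in.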
